A study of Mus musculus with 3 samples.

Results

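The miR-32 and miR-25 seed family was examined in ovaries of newborn CD1 mice that were cultured with Di (2-ethylhexyl) phthalate (DEHP), a plasticizer that leaches from plastics. The members were chosen by name, as mmu-miR-32-5p and 3 mature miRNAs that share its seed, namely mmu-miR-25-3p, mmu-miR-92b-3p and mmu-miR-363-3p (written without the species prefix from here on). All 4 had a row among the 627 mature miRNAs of the deposited count table. The whole ovaries were cultured for 72 h with 0 μM DEHP (the vehicle DMSO), 10 μM DEHP or 100 μM DEHP, in medium that contained fetal bovine serum in every group. The ovaries of a group, from many mice, were pooled into 1 small RNA library per concentration, so the comparisons are between 3 libraries, and no library has a replicate. The study also picked miR-32-5p for qRT-PCR from the miRNAs it had found changed in these same libraries. Its level here is therefore a description and not independent evidence of a change.

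MicroRNAs guide Argonaute proteins to messenger RNAs, and bases 2 to 8 of the miRNA, the seed, decide most of the pairing. miRNAs with the same seed are expected to share many targets, while the bases after the seed and the sites of transcription differ. The family of miR-25, miR-32, miR-92 and miR-363 is known for targets in cell survival, among them Bcl2l11, which encodes the pro-apoptotic protein Bim. Newborn ovaries pass through breakdown of germ cell cysts and assembly of primordial follicles, when many germ cells die.

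The mature sequences show what the members share and where they differ. They are given 5′ to 3′ from RefSeq on GRCm38.p6, with the seed in capitals.
miR-32-5p: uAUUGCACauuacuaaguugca
miR-25-3p: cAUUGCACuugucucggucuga
miR-92b-3p: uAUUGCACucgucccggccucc
miR-363-3p: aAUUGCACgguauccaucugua
miR-92a-3p: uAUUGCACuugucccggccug
In the RefSeq set, 6 mouse miRNAs had this seed. miR-92a-3p, made from the hairpins Mir92-1 and Mir92-2, is shown because it belongs to the same seed group, although it is not among the 4 members. miR-367-3p was the remaining one, and it had no row in the count table. Only the 7 bases of the seed were identical in all 4 members. Over the 14 bases after the seed, miR-25-3p and miR-92b-3p were identical at 9, miR-32-5p and miR-25-3p at 6, and miR-25-3p and miR-363-3p at 2. The G and C content ranged from 31.8% in miR-32-5p over 40.9% in miR-363-3p and 50.0% in miR-25-3p to 63.6% in miR-92b-3p. miR-92b-3p and miR-92a-3p were identical at 19 of 21 positions, and miR-25-3p and miR-92a-3p at 18 of 21, so the counts of these close copies are uncertain.

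The hairpins lie at 4 separate places of the genome. On GRCm38, Mir32 is at chr4:56895229-56895298 on the minus strand, inside an intron of the protein-coding gene Tmem245, which runs in the same direction. Mir25 is at chr5:138165321-138165404 on the minus strand within Mcm7, a subunit gene of the replicative helicase, with the hairpins of miR-93 and miR-106b next to it. In the GENCODE annotation Mir25 overlaps an exon of Mcm7 only in a retained-intron transcript. Mir92b is at chr3:89227116-89227198 on the minus strand and lies inside no other annotated gene. Mir363 is at chrX:52741693-52741767 on the minus strand, at the end of a cluster that begins with Mir106a and spans 875 bases.

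The deposited table held 6916300, 6950297 and 6850706 counts at 0, 10 and 100 μM over all its rows, and 5253367, 5064602 and 5952274 counts after 1 row per mature miRNA, that of highest total, had been kept. The 100 μM library thus has the lowest total over all rows and the highest over the kept rows. Normalized counts are counts over the DESeq2 size factors, which were 1.38, 1.35 and 0.546. Log2 ratios were taken after 0.5 normalized counts had been added, over the 587 miRNAs whose normalized counts averaged 10 or more. The intervals are exact 95% intervals of counting error. They compare the libraries and leave out variation between cultures. The 100 μM library stood apart from the others, and the choice of scaling shifts all its ratios together. Scaling to the total counts of the kept rows (called total counts below) moved every log2 ratio between 100 and 0 μM by -1.52, scaling to the totals of all rows by -1.32, and leaving the 10 most abundant miRNAs out of the kept-row totals moved them by -0.76. A direction at 100 μM is therefore given below with the scaling that reverses it, and ratios between miRNAs of the same library, which no scaling can move, are given beside it. The tissue label was checked on miRNAs of known cell types. miR-202-5p, which is typical of the gonads, ranked 32 of all miRNAs at 0 μM, while miR-122-5p of liver had 22 counts there and miR-124-3p of neurons had no row. The 2 endothelial arms of miR-126a were both below -2 between 100 and 0 μM, where 9.37% of all miRNAs were. The 6 germ cell miRNAs listed, miR-291a-3p, miR-294-3p, miR-295-3p, miR-741-3p, miR-871-3p and miR-881-3p, were above 0 with the size factors. With these, 3 of the 6 were above 2, as were 61 of all 587 miRNAs. With either kind of total counts 3 of the 6 were below 0 and 0 were above 2. Other miRNAs named in the same number series, looked at after their values were seen, went both ways with the size factors. Below 0 were, for example, miR-293-5p at -1.44 and miR-743b-3p at -1.18, and above 0 miR-292a-5p at 2.93 and miR-743a-5p at 1.60. The summed normalized counts at 0, 10 and 100 μM were 948, 1009 and 835 for 3 red blood cell miRNAs (miR-144-3p was at the floor of 3 counts at 10 and 100 μM), 265, 194 and 473 for 2 muscle miRNAs and 512, 497 and 660 for miR-9-5p of the nervous system. The higher muscle and miR-9-5p values at 100 μM rest on the size factors. The raw counts were 354, 252 and 252 for miR-1a-3p of muscle and 705, 670 and 360 for miR-9-5p. Either kind of total counts puts both miRNAs lower at 100 than at 0 μM. In pooled whole ovaries, fewer cells of a type and less of a miRNA per cell cannot be told apart, and the part of cell composition in the results was not tested.

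In the 0 μM library there were 335 counts of the highest member, miR-25-3p, for each count of the lowest, miR-363-3p. miR-25-3p had 17276 normalized counts and ranked 41 of the 627 miRNAs. miR-32-5p had 1009 normalized counts (rank 181), miR-92b-3p had 147 (rank 328) and miR-363-3p had 51.5 (rank 425). No counting interval of a member reached that of its neighbour in this order. The order was the same at 10 μM, but at 100 μM miR-92b-3p stood above miR-32-5p. These ranks rest on read counts, and the efficiency with which each miRNA enters a library is not known.

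**Figure D1:**
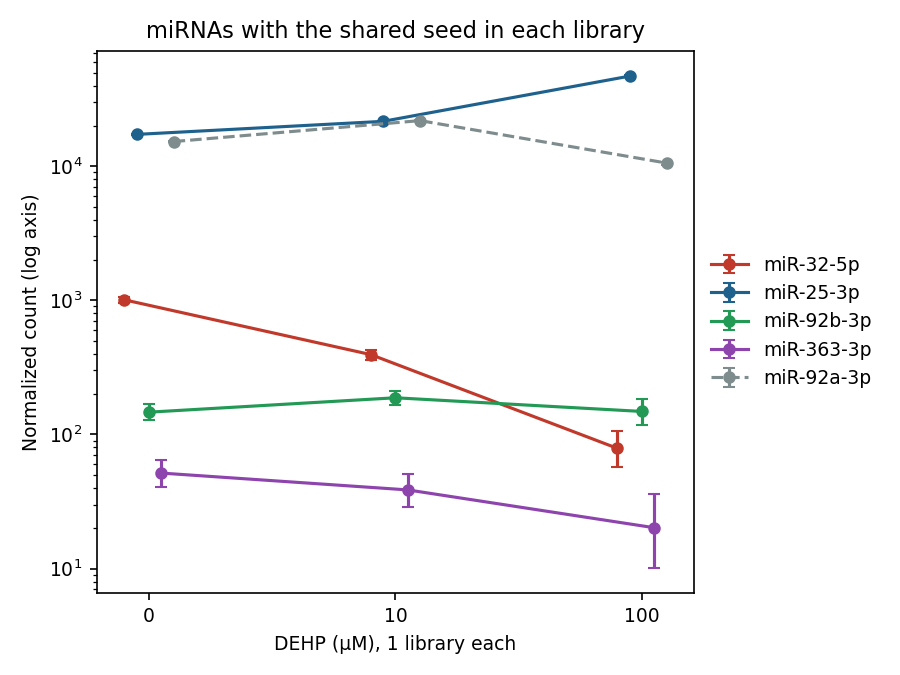
Normalized counts (log axis) of the 4 members and of miR-92a-3p at 0, 10 and 100 μM DEHP, 1 library each; bars are exact Poisson 95% intervals of the counts. miR-32-5p goes from 1009 to 78.8 and crosses miR-92b-3p, while miR-25-3p goes from 17276 to 47012.

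miR-32-5p was lower at each higher concentration. It had 1391 counts at 0 μM, 531 at 10 μM and 43 at 100 μM, or 1009, 394 and 78.8 normalized counts. The 3 counting intervals did not overlap. Its log2 ratio to 0 μM was -1.36 at 10 μM (-1.50 to -1.21) and reached -3.67 at 100 μM (-4.15 to -3.24). This is a level 12.7-fold lower. Of the 587 miRNAs, 18 had a lower ratio at 10 μM and 9 at 100 μM, so it lay near the lower end of both distributions. The direction was the same under each of the scalings tried.

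miR-25-3p, by far the most abundant member, was higher at each higher concentration with the size factors, while with total counts its direction at 100 μM rested on which rows were totalled. Its counts were 23808, 29142 and 25661, which correspond to 17276, 21619.6 and 47012 normalized counts. The log2 ratio to 0 μM was 0.32 at 10 μM (0.30 to 0.35) and 1.44 at 100 μM (1.42 to 1.47). At 100 μM the level was 2.72-fold higher with the size factors, but the log2 ratio was -0.07 with the totals of the kept rows and 0.12 with those of all rows. Of the kept-row counts, miR-25-3p held 0.453% at 0 μM, 0.575% at 10 μM and 0.431% at 100 μM. Of the counts of all rows it held 0.344%, 0.419% and 0.375%. The share was highest in the 10 μM library either way, and the order of the 0 and 100 μM libraries differed between the totals.

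miR-92b-3p differed little between the libraries with the size factors. It had 202, 253 and 81 counts, or 147, 188 and 148 normalized counts. Its log2 ratio to 0 μM was 0.36 at 10 μM (0.08 to 0.63), and in the 100 μM library it was 0.02 (-0.37 to 0.40). The 100 μM value was in the middle of the distribution, with 298 of the 587 miRNAs lower, and it became -1.49 when scaled to total counts and -0.74 when the 10 most abundant miRNAs were left out.

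miR-363-3p was the least abundant member and the one with the widest intervals. It had 71, 52 and 11 counts, or 51.5, 38.6 and 20.2 normalized counts. The log2 ratio to 0 μM was -0.41 at 10 μM, with an interval that included 0 (-0.96 to 0.12), and -1.33 at 100 μM (-2.42 to -0.43). The lower level at 100 μM was beyond counting error and kept its direction under the scalings tried, whereas a difference at 10 μM was not detectable at this depth.

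The study called miRNAs changed by a fold-change cutoff together with a limit on the false discovery rate. No such rate was used here, and the ratios here are not the study's fold changes. Being beyond a threshold here is therefore not the same as a call of the study. With a threshold of 2 on the log2 scale, 0 of the 4 members were beyond it at 10 μM, where 0.681% of all miRNAs were. Between 100 and 0 μM 1 of 4 was beyond it, miR-32-5p, against 19.8% of all miRNAs in either direction and 9.37% in the lower one. With total counts 2 of 4 members were beyond it, and 35.9% of all miRNAs were beyond it in the lower direction (31.0% with the totals of all rows). From 10 to 100 μM 1 of 4 was again beyond it, against 21.0% of all in either direction and 8.69% in the lower one, and again it was miR-32-5p, with a log2 ratio of -2.31 (-2.81 to -1.87). The study picked miR-32-5p from the miRNAs it had found changed in these same libraries. Its place beyond the threshold is therefore no result about the family. None of the other members was beyond it with the size factors. The median log2 ratio of the 4 members was -0.04 at 10 μM and -0.66 at 100 μM, and over all 587 miRNAs it was 0.02 and -0.01. On a threshold of 1, 1 of 4 members was beyond it at 10 μM (6.64% of all), 3 of 4 between 100 and 0 μM (52.5% of all) and 2 of 4 from 10 to 100 μM (54.2% of all). The members did not share a direction, with miR-32-5p and miR-363-3p below 0 and miR-25-3p above 0 at both concentrations with the size factors, while at 100 μM miR-25-3p was -0.07 with total counts and 0.12 with the totals of all rows. The comparisons with the 100 μM library share that library and are not independent of each other.

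**Figure D2:**
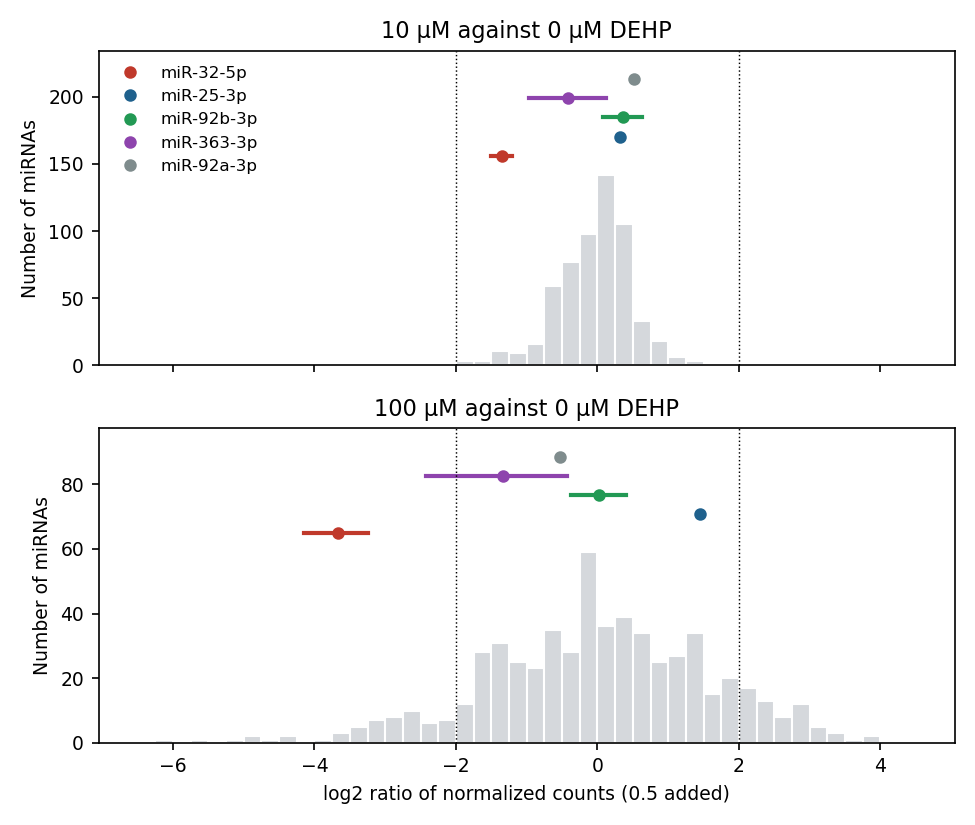
Histograms of the log2 ratios (x axis, normalized counts with 0.5 added) of the 587 miRNAs, for 10 against 0 μM and 100 against 0 μM; points and lines above them, at heights without meaning, are the 4 members and miR-92a-3p with 95% counting intervals, and dotted lines mark 2 and -2. miR-32-5p lies at -1.36 and -3.67, to the left of most miRNAs in both panels.

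The change of a member relative to another does not depend on library scaling, and it was computed for all 6 pairs in each comparison. In the comparisons with the 100 μM library, the largest divergence was that of miR-32-5p and miR-25-3p. There were 17.1 counts of miR-25-3p for each count of miR-32-5p at 0 μM, 54.9 at 10 μM and 597 at 100 μM. On the log2 scale miR-32-5p thus changed by -1.68 relative to miR-25-3p at 10 μM (-1.83 to -1.53) and by -5.12 at 100 μM (-5.60 to -4.69). Relative to miR-92b-3p, the change of miR-32-5p was -1.71 at 10 μM (-2.03 to -1.40) and -3.70 at 100 μM (-4.31 to -3.10). Relative to miR-363-3p it was -0.94 (-1.50 to -0.37) and -2.33 (-3.38 to -1.16). Hence miR-32-5p lost ground to each of the other members at both concentrations, by more than counting error. Among the other members, miR-25-3p and miR-92b-3p kept their ratio at 10 μM within counting error (-0.03, -0.31 to 0.24), and miR-25-3p gained 1.43 on miR-92b-3p at 100 μM (1.05 to 1.82). miR-363-3p lost to miR-25-3p at both concentrations, with 0.74 in favour of miR-25-3p at 10 μM (0.20 to 1.29) and 2.80 at 100 μM (1.87 to 3.86). With 1 library per concentration these intervals do not tell how far such ratios vary between cultures of the same concentration.

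**Figure D3:**
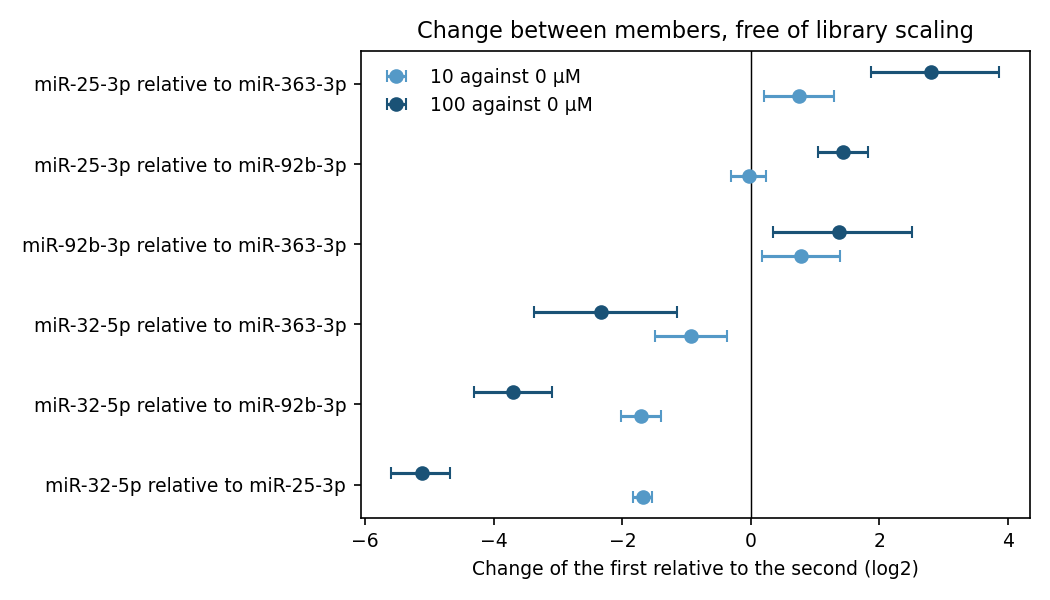
Change of the first member relative to the second between libraries (x axis, log2 of the ratio of count ratios, with exact 95% counting intervals) for the 6 pairs, at 10 against 0 μM and 100 against 0 μM. The 3 pairs with miR-32-5p lie left of 0 at both concentrations, from -0.94 to -5.12.

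Because the seed is shared, the counts of the measured miRNAs that carry it were also summed, miR-92a-3p included. These 5 miRNAs held 0.886% of the kept-row counts at 0 μM, 1.17% at 10 μM and 0.530% at 100 μM. In normalized counts the sum had a log2 ratio to 0 μM of 0.39 at 10 μM (0.37 to 0.40) and 0.78 at 100 μM (0.76 to 0.80), and the latter became -0.74 with total counts and -0.55 with the totals of all rows. The summed seed was therefore not clearly higher or lower at 100 μM, as its direction rested on the scaling. Its composition did not rest on the scaling. miR-25-3p made 51.2% of the sum at 0 μM, 49.0% at 10 μM and 81.3% at 100 μM, and miR-92a-3p made 45.3%, 49.6% and 18.3%. With both deposited rows of miR-92a-3p summed, the shares of miR-25-3p were 47.0%, 44.2% and 80.5%, so that miR-92a-3p, with 49.7%, was then the larger at 0 μM. miR-32-5p made 2.99% at 0 μM (Wilson 95% interval 2.84% to 3.15%), 0.893% at 10 μM and 0.136% at 100 μM (0.101% to 0.183%). The seed was thus carried by miR-25-3p and miR-92a-3p at all concentrations, and miR-32-5p was a small part of it in each library, also before its level was lower. miR-92b-3p made 0.434%, 0.425% and 0.257%, and miR-363-3p made 0.153%, 0.0874% and 0.0349%.

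**Figure D4:**
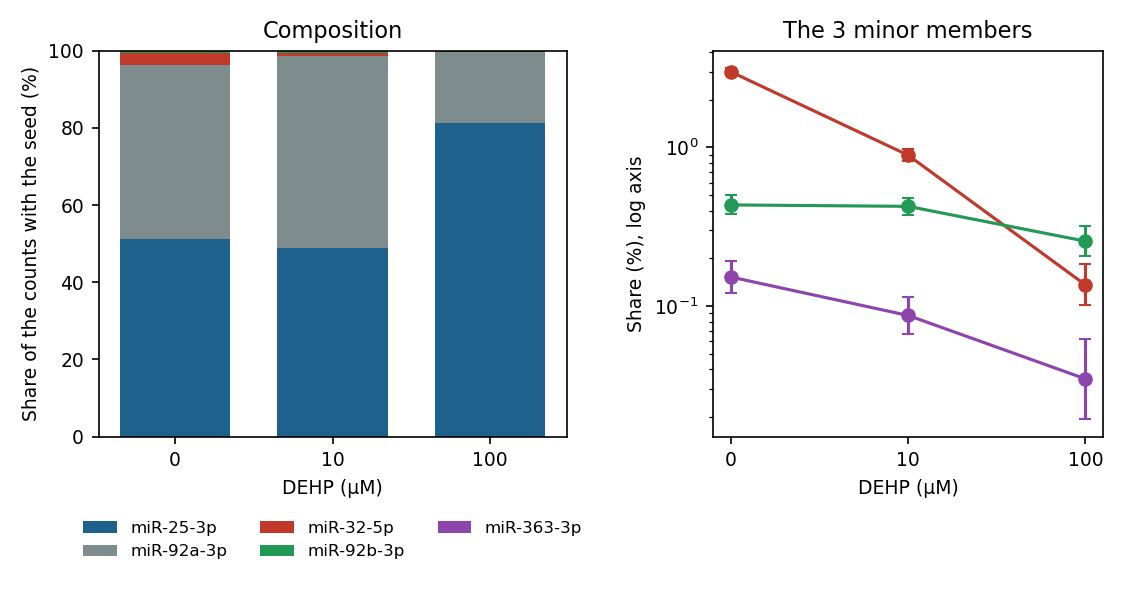
Left, share (%) of each miRNA in the summed counts of the 5 miRNAs with the seed at 0, 10 and 100 μM DEHP; right, the 3 minor members on a log axis with Wilson 95% intervals. miR-25-3p goes from 51.2% to 81.3% and miR-32-5p from 2.99% to 0.136%.

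miR-92a-3p, which is also made from the cluster of miR-17, had 15278, 21893 and 10560 normalized counts in its more abundant row. At 10 μM its level was close to that of miR-25-3p, but at 100 μM miR-25-3p had 4.45 counts for each count of miR-92a-3p. The table holds another row under the same mature ID, and both rows were below 0 at 100 μM, at -0.53 and -2.46 on the log2 scale. The value of miR-92a-3p thus depends on the row, and neither row is tied to Mir92-1 or Mir92-2 by name.

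Each hairpin gives 2 arms, of which the member is the major one, and the other arm was counted as well. The balance between the arms of a hairpin is again free of scaling. The other arms with a RefSeq sequence are shown here in lower case, for comparison with the members.
miR-32-3p: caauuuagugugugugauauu
miR-25-5p: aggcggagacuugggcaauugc
miR-92b-5p: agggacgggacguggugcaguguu
miR-32-3p had 53, 29 and 35 counts at 0, 10 and 100 μM, so that it did not follow miR-32-5p from 10 to 100 μM. Its share of the counts of both arms was 3.67% at 0 μM (2.76% to 4.77%), 5.18% at 10 μM (3.50% to 7.35%) and, in the 100 μM library, 44.9% (33.6% to 56.6%). Both arms of miR-32 were thus nearly equal in counts at 100 μM, where miR-32-5p had prevailed 26.2 to 1 at 0 μM. With the size factors the log2 ratio of miR-32-3p to 0 μM was -0.82 at 10 μM (-1.54 to -0.16) and 0.73 at 100 μM (0.08 to 1.38). With either kind of total counts the value at 100 μM was below 0, at -0.58 with the totals of all rows. miR-363-5p had 11, 8 and 23 counts, and its share of both arms was 13.4%, 13.3% and 67.6%. In miR-363, too, the minor arm of the 0 μM library had gained at 100 μM. It there had more counts than the member itself, although on few counts and with an interval that included equal shares (49.5% to 82.6%). miR-25-5p went the other way, with 54, 60 and 5 counts and a share of 0.226%, 0.205% and 0.0195%. miR-92b-5p had 12, 16 and 6 counts, and its share of 5.61%, 5.95% and 6.90% differed by less than counting error.

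Taking major against minor arm, the log2 change of the balance from 0 to 100 μM was -4.42 for miR-32 (-5.21 to -3.60), -3.75 for miR-363 (-5.30 to -2.23), 3.54 for miR-25 (2.23 to 5.22) and -0.32 for miR-92b (-1.90 to 1.43). From 0 to 10 μM each of these 4 intervals included 0. A change of balance beyond 2 was found in 3 of the 4 hairpins at 100 μM, but such changes were common there. Among the 174 hairpins with both arms over the minimum, 33.9% had one between 100 and 0 μM, 1.15% between 10 and 0 μM and 38.5% between 100 and 10 μM. In the comparison of 100 with 0 μM, 11.5% had a change beyond 2 toward the minor arm and 22.4% toward the major one. Of these hairpins, 3 had a larger shift toward the minor arm than miR-32, and 7 than miR-363. The shares and ranks use the difference between the log2 ratios of the 2 arms, -4.40 for miR-32 and -3.66 for miR-363. miR-363 is in this set only through the 100 μM library. miR-363-5p had 7.98 and 5.93 normalized counts at 0 and 10 μM, below the minimum of 10, and 42.1 at 100 μM. The rank of miR-363, and its count against the 33.9%, therefore say nothing beyond that value.

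**Figure D5:**
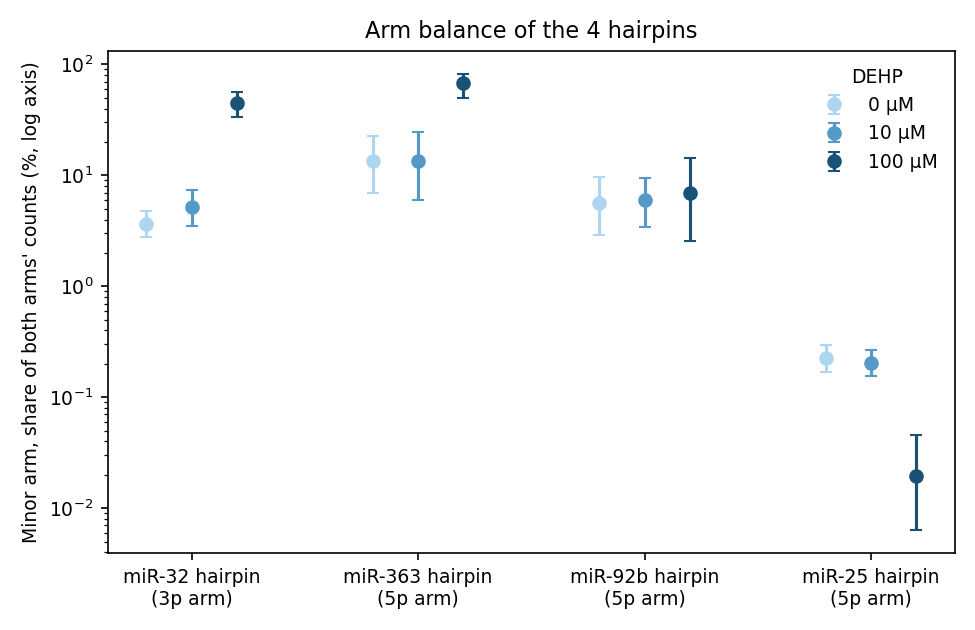
Share (%, log axis) of the minor arm in the counts of both arms of the miR-32, miR-363, miR-92b and miR-25 hairpins at 0, 10 and 100 μM DEHP, 1 library each, with exact 95% intervals. The minor arm reaches 44.9% for miR-32 and 67.6% for miR-363 at 100 μM, is 6.90% for miR-92b and 0.0195% for miR-25 there.

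The neighbours of miR-25 in Mcm7 are miR-93 and miR-106b, whose 5p arms belong to the seed group of miR-17, known for targets in the cell cycle. All 4 arms of these hairpins had a row and passed the minimum. At 10 μM their log2 ratios lay between -0.40 and 0.71, around that of miR-25-3p. At 100 μM, with the size factors, 1 of 4 was above 2, where 61 of all 587 miRNAs were. Below 0 were 3 of 4, while the median of all miRNAs was -0.01. Either kind of total counts puts the 1 above 2 below that threshold. miR-106b-3p was the higher one, with 2884, 3817 and 8427 counts and a log2 ratio of 2.88 (2.82 to 2.94), whereas miR-106b-5p of the same hairpin had 2775, 2058 and 372 counts and a log2 ratio of -1.56 (-1.72 to -1.41). miR-93-5p, with 9629, 10988 and 1963 counts, had a log2 ratio of -0.96 (-1.03 to -0.89). Of the 3 hairpins in this cluster, then, miR-25 and miR-106b each had an arm above and an arm below 0 at 100 μM, while both arms of miR-93 were below 0. The sign of miR-25-3p there depended on the totals used, as given above.

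Of the 8 listed neighbours of miR-363 on the X chromosome, 3 had a row. They were miR-106a-5p, miR-20b-5p and miR-19b-3p, and the last is also made from Mir19b-1 in another cluster. Each was within 0.11 of 0 on the log2 scale at 10 μM. At 100 μM all 3 were lower, with log2 ratios of -2.69 for miR-106a-5p (5 counts), -1.62 for miR-20b-5p (16 counts) and -3.06 for miR-19b-3p (333 counts). miR-363-3p had the same direction there, with -1.33, and its interval overlapped those of miR-106a-5p and miR-20b-5p but not that of miR-19b-3p. miR-106a-5p and miR-20b-5p are close copies of other miRNAs of the miR-17 group, so their counts are uncertain. The hairpin next to Mir363 in this cluster is Mir92-2, whose product miR-92a-3p was not on the list and is also made from Mir92-1. The log2 ratio of miR-92a-3p at 100 μM was -0.53 or -2.46, depending on the row.

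The qRT-PCR of the study also covered miR-141-3p and miR-19a-3p. Their log2 ratios at 10 μM were 0.15 and -0.08, with intervals that included 0, so that of the 3 only miR-32-5p was lower at 10 μM beyond counting error. At 100 μM all 3 were lower than at 0 μM. miR-141-3p had 1 count there, which is at the floor, and was at least 20.7-fold lower. The log2 ratio of miR-19a-3p, with 13 counts at 100 μM, was -4.42 (-5.37 to -3.67). That of miR-32-5p was -3.67 (-4.15 to -3.24), and the 2 intervals overlapped. The study had picked all 3 from the miRNAs it found changed in these libraries.

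Finally, the miRNAs with the pattern most like that of each member were listed by the distance between their pairs of log2 ratios at 10 and 100 μM, among miRNAs whose normalized counts averaged 100 or more. With 3 libraries this distance rests on 2 ratios. Nearest to miR-32-5p were miR-30e-5p (distance 0.40), miR-34b-5p (0.60) and miR-301a-5p (1.02). The log2 ratios of miR-30e-5p at 10 and 100 μM were -1.12 and -3.35. Those of miR-34b-5p were -1.28 and -3.08. The other members, which lay less near an end of the distributions, had closer companions. Nearest to miR-25-3p were miR-30c-1-3p (0.07), miR-26b-5p (0.13) and miR-132-3p (0.13). Nearest to miR-92b-3p were let-7d-5p (0.06), let-7a-5p (0.08) and miR-378a-5p (0.08), and nearest to miR-363-3p were miR-99a-5p (0.02), miR-210-5p (0.08) and miR-425-3p (0.10). The counting intervals at 100 μM, -0.37 to 0.40 for miR-92b-3p and -2.42 to -0.43 for miR-363-3p, are much wider than these distances. Which miRNAs are nearest to miR-92b-3p and miR-363-3p is therefore uncertain. No member was among the nearest of another. For miR-363-3p this was fixed beforehand, as its mean of 36.7 normalized counts kept it out of the miRNAs compared.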

How the data were processed

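Small RNA libraries of cultured ovaries, 1 per DEHP concentration, were sequenced. The authors removed adapters and low-quality sequence, used bowtie2 for the comparison with the genome and miRDeep2 for counting, and deposited raw counts per mature miRNA, with several rows for 79 of the mature IDs. The submitters' processing notes name mm10 and DESeq2, and tool versions are not given in the sources used here. Columns were matched to concentrations by the sample titles.

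The deposited table has 961 rows. The row of highest total was kept for each of 627 mature IDs. Size factors came from DESeq2 1.42.0 in R 4.3.3, other scalings from edgeR 4.0.16, and intervals from SciPy 1.17.1 in Python 3.11.15 (exact Poisson for levels, exact Clopper-Pearson for shares of 2 arms and for ratios of 2 counts, exact conditional for ratios of count ratios, Wilson for shares of a total or of the summed seed, all at 95%). With 1 library per concentration there is no test and no p-value. Since the reads carry no molecular identifiers, they cannot be taken as separate molecules, and the intervals cover counting error alone. Counts of 3 or fewer were taken as the floor, and no member was at it. The scripts were tested on simulated counts.

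Names and sequences matched RefSeq (GRCm38.p6) for 529 of the 627 miRNAs, and host genes came from GENCODE M21. The text names the members, other miRNAs with the seed, the other arms, the hairpin neighbours, the 3 nearest patterns per member, the qRT-PCR miRNAs and cell type markers. Members and lists were chosen with earlier results of these data known. Alternatives were TMM, upper-quartile and total-count scaling, totals of all deposited rows (added after the data were seen), kept-row totals that left out the 10 most abundant miRNAs, summed rows, 1 normalized count added, other minimums and a threshold of 1. Targets and qRT-PCR were not analysed here.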

Additional observations from a re-analysis of the deposited data

How the results depend on the processing

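No paired analysis was possible because each concentration has only 1 library. For the same reason, leaving out a replicate was not possible. The choice of scaling moved the ratios of the 100 μM library by a common shift, which is how these settings are built. With total counts of the kept rows the log2 ratios between 100 and 0 μM were -5.18 for miR-32-5p, -0.072 for miR-25-3p, -1.49 for miR-92b-3p, -2.81 for miR-363-3p and -0.74 for the summed seed, and between 100 and 10 μM they were -3.84, -0.42, -1.87, -2.42 and -1.15. With the totals of all deposited rows, a setting chosen after seeing the data, the values between 100 and 0 μM were -4.99, 0.12, -1.30, -2.62 and -0.55, those between 100 and 10 μM were -3.59, -0.16, -1.62, -2.17 and -0.89, and at 10 μM miR-25-3p had 0.28 and the summed seed 0.35. Without the 10 most abundant miRNAs in the totals, the values between 100 and 0 μM were -4.43 for miR-32-5p, 0.68 for miR-25-3p, -0.74 for miR-92b-3p and 0.011 for the summed seed, and between 100 and 10 μM they were -3.12, 0.32, -1.14 and -0.42. For miR-25-3p, whose counting interval is narrow, TMM gave 0.35, 1.52 and 1.17 for 10 against 0, 100 against 0 and 100 against 10 μM, the upper quartile gave 0.38 and 1.07 for the first and the last of these, and leaving out the 10 most abundant gave 0.36 at 10 μM. For the summed seed, TMM gave 0.42, 0.85 and 0.44, the upper quartile gave 0.45 at 10 μM and 0.34 from 10 to 100 μM, total counts gave 0.41 and totals without the 10 most abundant 0.43 at 10 μM, and summed rows gave 0.41, 0.67 and 0.26.

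The number of members beyond 2 was 2 with total counts of either kind in both comparisons with the 100 μM library, and 2 between 100 and 0 μM without the 10 most abundant miRNAs. At a threshold of 1 it was 1 at 10 μM, 3 between 100 and 0 μM and 2 from 10 to 100 μM. Over all miRNAs, the 4 beyond 2 at 10 μM became 9 with no minimum, 1 with a mean of at least 100 and 39 at a threshold of 1. The 116 between 100 and 0 μM (52.6% higher) became 217 with total counts (1.84% higher), 189 with the totals of all rows (3.17% higher), 75 with a mean of at least 100 (66.7% higher) and 308 at a threshold of 1. The 123 from 10 to 100 μM (58.5% higher) became 234 with total counts (3.42% higher), 197 with the totals of all rows (6.60% higher), 81 with a mean of at least 100 (70.4% higher) and 318 at a threshold of 1. The 18 changes of a member relative to another stayed within their counting intervals with 1 normalized count added. Depth limits miR-363-3p most, with 11 counts at 100 μM.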

Other observations

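The members also differ in features of sequence that the choice by seed did not use, and values for these are given without an explanation. They were looked at after the ratios of the members were known. Of the 587 miRNAs tested, 497 had a mature RefSeq sequence. Across these 497 miRNAs, which share the libraries and are not independent replicates, the log2 ratio between 100 and 0 μM had a Pearson correlation of 0.15 and a Spearman correlation of 0.17 with the G and C content of the mature sequence. Among the 77 miRNAs within 5 percentage points of miR-32-5p in G and C content, itself included, the median log2 ratio at 100 μM was -0.50. In this set 1 miRNA was lower than miR-32-5p. At 10 μM the median of these miRNAs was -0.05, and 2 were lower than miR-32-5p. Among the 200 miRNAs within 5 points of miR-25-3p, itself included, the median at 100 μM was 0.02, and 168 were lower than miR-25-3p.

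The first base lies outside the seed and differs between the members. miR-25-3p is the only one of the 4 that begins with C. Over the 103 miRNAs that begin with C, the median log2 ratio at 100 μM was 0.57, against -0.17 for the 133 with A, -0.22 for the 45 with G and -0.03 for the 216 with U. The interquartile range of the C group, -0.78 to 1.44, overlapped widely with those of the others. At 10 μM the 4 medians lay between 0.02 and 0.04. Of the other arms, miR-32-3p also begins with C, and miR-25-5p and miR-92b-5p begin with A. The base was chosen after the values had been seen, so these medians support nothing by themselves.

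miR-92a-1-5p, the other arm of Mir92-1, had 20 counts at 0 μM, 25 at 10 μM and 0 at 100 μM. Against the floor of 3 counts in the 100 μM library it was at least 2.64-fold lower there than at 0 μM.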
